A study of Mus musculus with 9 samples.

Results

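Bulk RNA-Seq of whole mouse extrahepatic bile ducts (EHBDs) was searched for 10 genes of interleukin-6 (IL-6) family signaling, to ask which ligands, receptors and the feedback inhibitor of this pathway changed after acute bile duct obstruction. The genes were given as a list of symbols: the ligands Il6, Il11, Osm, Lif and Clcf1, the receptor subunits Il6st, Il6ra, Lifr and Osmr, and the inhibitor Socs3. They are 10 of the 55822 gene IDs in the count table, and all 10 had enough counts to be tested. The groups were 5 adult wild-type C57BL/6 mice (substrain C57BL/6J in the study's methods) with bile duct ligation (BDL; replicates 3, 4, 6, 8 and 10) and 4 such mice with sham surgery (replicates 1, 2, 5 and 7). Sham mice had the same abdominal opening without a ligature, which in BDL mice closed the duct at its intestinal end. Tissue was taken 24 hours after surgery, and 1 library came from each mouse. Per the deposited sample sheet, BDL replicates 3 and 10 and sham replicates 1 and 2 were male and the others female. The labels name no engineered allele and no drug for either group. Ducts of mice without any surgery were not analysed here.

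The ligands listed above all signal through the shared receptor chain gp130, the product of Il6st. A ligand is bound by gp130 together with a further receptor chain, for example the IL-6 receptor alpha chain, the LIF receptor or the oncostatin M receptor. The complex then activates JAK kinases and the transcription factor STAT3. STAT3 switches on Socs3, whose protein binds gp130 and the JAKs and dampens the signal. In bile ducts IL-6 is known as a growth factor of cholangiocytes, the epithelial cells that line the duct, and is made by inflamed tissue, including by the cholangiocytes themselves.

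The sequence before the start of Il6 is shown because Il6 was the ligand with the smallest adjusted p. It is the 250 bases before the start of the canonical transcript in Gencode vM39, chr5:30217862-30218111 of GRCm39, read 5′ to 3′ on the + strand, which is that of the gene. Its capitals mark a match to TGANTCA, the type of site bound by AP-1 factors, and a match to GGG and TTTCC with 2 free bases between them, a form of the site bound by NF-kappaB.
Il6: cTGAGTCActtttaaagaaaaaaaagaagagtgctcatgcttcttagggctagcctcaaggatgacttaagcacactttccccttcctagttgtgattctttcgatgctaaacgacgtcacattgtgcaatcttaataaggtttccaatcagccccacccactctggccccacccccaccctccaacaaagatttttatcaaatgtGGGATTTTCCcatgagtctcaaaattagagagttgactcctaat

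Counted back from the canonical start, TGAGTCA lay at positions -249 to -243 and GGGATTTTCC at -44 to -35 before Il6. The motifs were searched on both strands in the same window of all 10 genes and of 21770 protein-coding genes. Longer transcripts of Il11, Il6ra, Lifr and Socs3 start further upstream, so for these genes the window lies inside the annotated gene, for Il6ra in part. TGANTCA was found in 6.17% of all windows, and among the 10 genes in those of Il6, Il11 (TGAGTCA at -98 to -92) and Lif (TGACTCA at -217 to -211). The NF-kappaB form was found in 1.47% of all windows and among the 10 genes in that of Il6 alone. TTCNNNGAA, the spaced palindrome to which STAT factors can bind, was found in 7.70% of all windows and among the 10 genes in that of Socs3 alone (TTCTTAGAA at -223 to -215). Its narrower form TTCCNGGAA, which every TTCNNNGAA search also finds, was found in 0.942% and in none of the 10. A match says that the letters are there, and binding was not measured.

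The libraries held 23067967 to 29991945 counts after BDL and 24101163 to 27025227 counts after sham surgery. The tissue label was checked with 8 markers of biliary epithelium, which summed to 170000 to 297000 normalized counts after BDL and 63400 to 100100 after sham surgery. A normalized count is the count divided by the size factor that DESeq2 gave the library. The groups differed in what else the tissue held: 10 markers of pancreatic acinar cells took 0.00850% to 1.98% of all counts in BDL libraries and 12.3% to 29.4% in sham libraries. In bulk tissue, fewer cells of a type and less RNA per cell cannot be told apart. Changes are log2 fold changes of BDL over sham with their standard errors, from edgeR's quasi-likelihood test with TMM scaling and a term for sex, and a gene was called at a Benjamini-Hochberg adjusted p under 0.05 over the 21299 genes with at least 10 counts in total.

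Of the 10 genes, Il6, Il11, Osm, Clcf1 and Socs3 were higher after BDL, Il6st, Il6ra and Lifr were lower, and Lif and Osmr did not pass the test. Of all tested genes 21.4% were called higher and 19.9% lower, so 41.4% were called in all, and the 8 of 10 called here stand against that share. The median log2 fold change was 0.85 over the 10 genes and -0.03 over all tested genes. Normalized counts of the groups did not overlap for 8 of the 10: Il6, Il11, Osm, Lif, Clcf1 and Socs3 had every BDL library above every sham library, as did 19.2% of all tested genes, and Il6st and Lifr had every BDL library below, as did 19.0%.

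Il6, the ligand that gives the family its name and signals through IL-6 receptor alpha and gp130, was close to undetected after sham surgery and clearly present after BDL. BDL replicates 3, 4, 6, 8 and 10 had 266, 75.4, 232, 99.4 and 175 normalized counts, against 2.57, 0, 3.93 and 6.92 in sham replicates 1, 2, 5 and 7. Even the lowest BDL library, replicate 4, lay above all sham libraries, and no sham library held more than 3 reads. The means were 169.7 ± 82.4 after BDL (SD, n = 5) and 3.35 ± 2.88 after sham surgery (SD, n = 4). The log2 fold change was 5.74 ± 0.68 (adjusted p = 0.000185), a fold of 53.5. Pooled over libraries, 1184 counts after BDL stood against 9 after sham surgery. Scaled by the size factors, the ratio was 55.0 with a 95% counting interval of 28.9 to 121. The Il6 call held in all 22 alternative settings, with log2 fold changes of 4.71 to 6.96.

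Il11 encodes interleukin-11, which uses its own alpha chain (Il11ra1) and gp130 and is known in stromal and fibrotic responses. It had 154, 31.1, 97.3, 19.6 and 46.5 normalized counts in BDL replicates 3, 4, 6, 8 and 10, against 0.856, 1.81, 7.86 and 0 in sham replicates 1, 2, 5 and 7. BDL replicates 3 and 6 were the high ones and replicate 8 the low one, yet the groups did not overlap. Il11 rose with a log2 fold change of 4.59 ± 0.96 (adjusted p = 0.00397). The counts behind it were 483 after BDL and 8 after sham surgery (ratio 25.3 scaled by the size factors, 95% counting interval 12.7 to 58.8). The value depended on sham replicate 5, which held 6 of the 8 sham counts, and the log2 fold change was 6.49 without it.

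Osm encodes oncostatin M, a cytokine made largely by neutrophils and macrophages that in the mouse acts mainly through the oncostatin M receptor and gp130. Its normalized counts were 518, 9.83, 728, 95.1 and 45.7 in BDL replicates 3, 4, 6, 8 and 10, against 2.57, 3.63, 6.55 and 0 in sham replicates 1, 2, 5 and 7. BDL replicates 3 and 6 stood far above the other BDL libraries, and replicate 4 lay only just above the highest sham library. The spread was therefore wide (279 ± 324, SD, n = 5, after BDL and 3.19 ± 2.71, SD, n = 4, after sham surgery), and the log2 fold change of 6.34 ± 1.46 (adjusted p = 0.00682) carried the largest standard error of the 10 genes. The log2 fold change was 5.33 without BDL replicate 3, 5.34 without BDL replicate 6 and 6.96 without sham replicate 5, and Osm was called each time.

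Neutrophil markers moved along with these cytokines. Of 10 markers 8 rose and none fell, beside 21.4% higher and 19.9% lower of all tested genes. An example is S100a9, a calcium-binding protein gene abundant in neutrophils, with a log2 fold change of 5.47 (adjusted p = 0.00150). The summed normalized counts of the 10 were 25300, 2876, 24660, 15730 and 5451 in BDL replicates 3, 4, 6, 8 and 10, against 20910, 301, 444 and 539 in sham replicates 1, 2, 5 and 7. Osm was highest in BDL replicates 3 and 6, where this sum was highest too, and lowest in replicate 4, where it was lowest. The sums of BDL replicate 8 (10560 of 15730) and sham replicate 1 (20190 of 20910) came mostly from Ltf, a granule protein gene that secretory epithelia also express, and the defining neutrophil marker Ly6g was at 0 in every sham library. Markers of monocytes and macrophages gave 3860 to 37100 normalized counts after BDL and 14800 to 26900 after sham surgery. Of these 10 markers 2 were higher and none lower at the threshold, and the share higher is near that of all tested genes. The part of these cells in the cytokine changes was not tested.

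Lif encodes leukemia inhibitory factor, which binds the LIF receptor and gp130. It had 145, 134, 186, 136 and 130.2 normalized counts in BDL replicates 3, 4, 6, 8 and 10, against 117, 88.9, 23.6 and 119.9 in sham replicates 1, 2, 5 and 7. Every BDL library was above every sham library, but the gap to sham replicates 1 and 7 was small and the sham spread was set largely by the low replicate 5. The log2 fold change of 0.83 ± 0.42 did not pass (adjusted p = 0.141), with a 95% interval of -0.11 to 1.76. An exact two-sided permutation test of the log2 values alone gave p = 0.00794, the smallest that 5 against 4 libraries allow. That p is not adjusted, and 19.2% of all tested genes also had every BDL library above every sham library.

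Clcf1 encodes cardiotrophin-like cytokine factor 1, which acts through the CNTF receptor, the LIF receptor and gp130. It had 207, 351, 264, 204 and 216 normalized counts in BDL replicates 3, 4, 6, 8 and 10, against 184, 107, 113 and 143 in sham replicates 1, 2, 5 and 7. All BDL libraries were higher, although BDL replicate 8 and sham replicate 1 lay close together. Clcf1 rose with a log2 fold change of 0.87 ± 0.25 (adjusted p = 0.0204), a fold of 1.83. The call ended without sham replicate 2 (0.79, adjusted p = 0.0539), 5 (0.73, adjusted p = 0.0755) or 7 (0.87, adjusted p = 0.0532). The gene overlaps the protein-coding Gm45928 on the same strand, so its counts are uncertain.

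**Figure D1:**
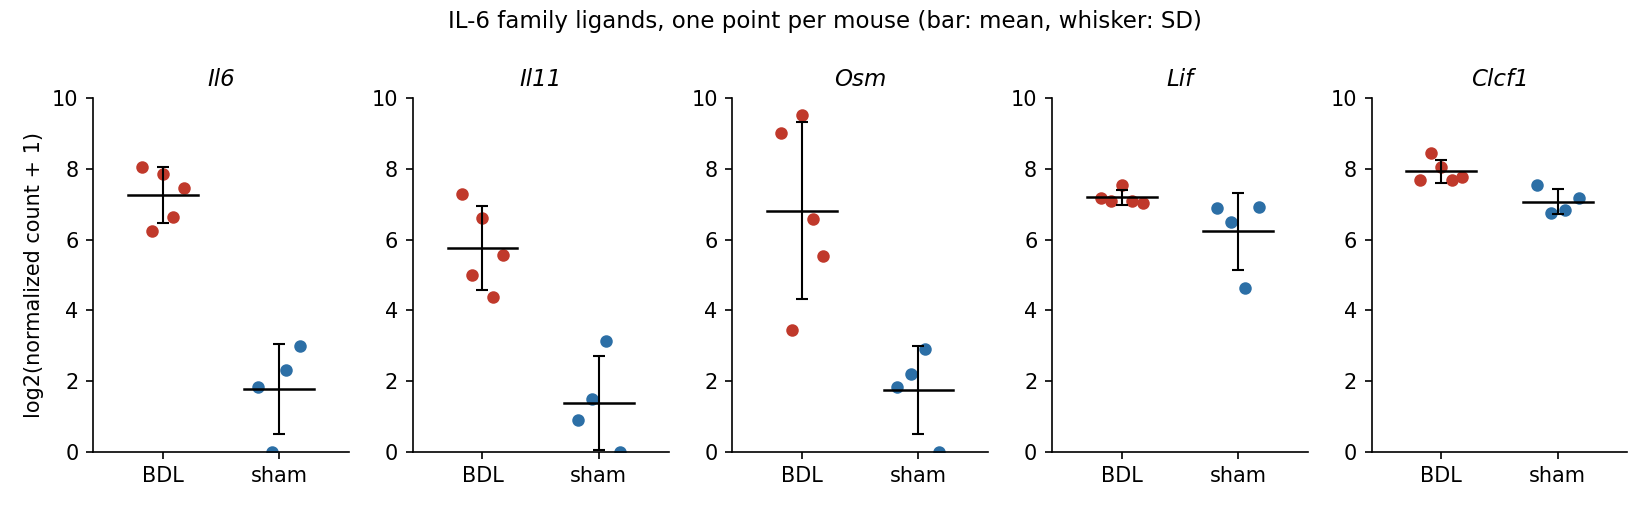
Each panel shows 1 ligand gene on the same axis, log2(normalized count + 1), with 1 point per mouse for BDL (red, n = 5) at left and sham (blue, n = 4) at right; bars are means and whiskers SDs of the log2 values. Il6, Il11 and Osm sit near 0 to 3 in sham EHBDs and well above it after BDL, Osm with the widest spread, while Lif and Clcf1 are present in both groups.

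Il6st encodes gp130, the chain that all these ligands share, and its level was lower after BDL. BDL replicates 3, 4, 6, 8 and 10 had 2524, 1619, 3090, 3130 and 3438 normalized counts, against 5259, 5666, 6997 and 3949 in sham replicates 1, 2, 5 and 7. The groups did not overlap, and BDL replicate 4 was the lowest of all. The means were 2760 ± 718 after BDL (SD, n = 5) and 5468 ± 1255 after sham surgery (SD, n = 4), and the log2 fold change was -0.93 ± 0.23 (adjusted p = 0.0102).

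Il6ra encodes the IL-6 receptor alpha chain, which gives a cell its direct response to IL-6. It had 273, 90.9, 180.1, 146 and 169.7 normalized counts in BDL replicates 3, 4, 6, 8 and 10, against 294, 479, 303 and 263 in sham replicates 1, 2, 5 and 7. BDL replicates 4, 6, 8 and 10 lay below all sham libraries, and replicate 3 lay within the sham range. Il6ra fell by 0.87 on the log2 scale (standard error 0.25, adjusted p = 0.0185). The call ended without BDL replicate 10 (-0.79, with an adjusted p just over the threshold), sham replicate 2 (-0.77, adjusted p = 0.0609) or sham replicate 5 (-0.80, adjusted p = 0.0605).

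Lifr encodes the LIF receptor, the chain used by LIF and shared with the receptors of Clcf1 and other family ligands, and it showed the largest decrease of the 10 genes. BDL replicates 3, 4, 6, 8 and 10 had 807, 695, 469, 740.3 and 623 normalized counts, against 1974, 3484, 2013 and 3954 in sham replicates 1, 2, 5 and 7. The highest BDL library was thus well below the lowest sham library, and the sham libraries fell into a lower pair (1 and 5) and a higher pair (2 and 7). Lifr was 4.14-fold lower after BDL, with a log2 fold change of -2.05 ± 0.25 (adjusted p = 0.000207). With the sham group limited to replicates 1 and 5, the log2 fold change was -1.53 and Lifr was still called.

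Osmr encodes the oncostatin M receptor, and no difference was detected. BDL replicates 3, 4, 6, 8 and 10 had 922, 571, 1089, 884 and 985 normalized counts, against 809.8, 1304, 1102 and 445 in sham replicates 1, 2, 5 and 7. All BDL libraries lay inside the sham range. The log2 fold change was 0.05 ± 0.28 (adjusted p = 0.907), with a 95% interval of -0.58 to 0.68. A true change of a size within that interval is compatible with these libraries.

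Socs3, the feedback inhibitor of gp130 signaling, was higher after BDL in every library. BDL replicates 3, 4, 6, 8 and 10 had 2126, 1713, 1843, 1128 and 1639 normalized counts, against 368, 702, 448 and 323 in sham replicates 1, 2, 5 and 7. BDL replicate 8 was the lowest BDL library and still exceeded the highest sham library, replicate 2. The means were 1690 ± 365 after BDL (SD, n = 5) and 460.2 ± 169 after sham surgery (SD, n = 4). The log2 fold change was 1.97 ± 0.23 (adjusted p = 0.000167), a fold of 3.92, and it ranged from 1.86 to 2.17 with each library left out in turn.

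**Figure D2:**
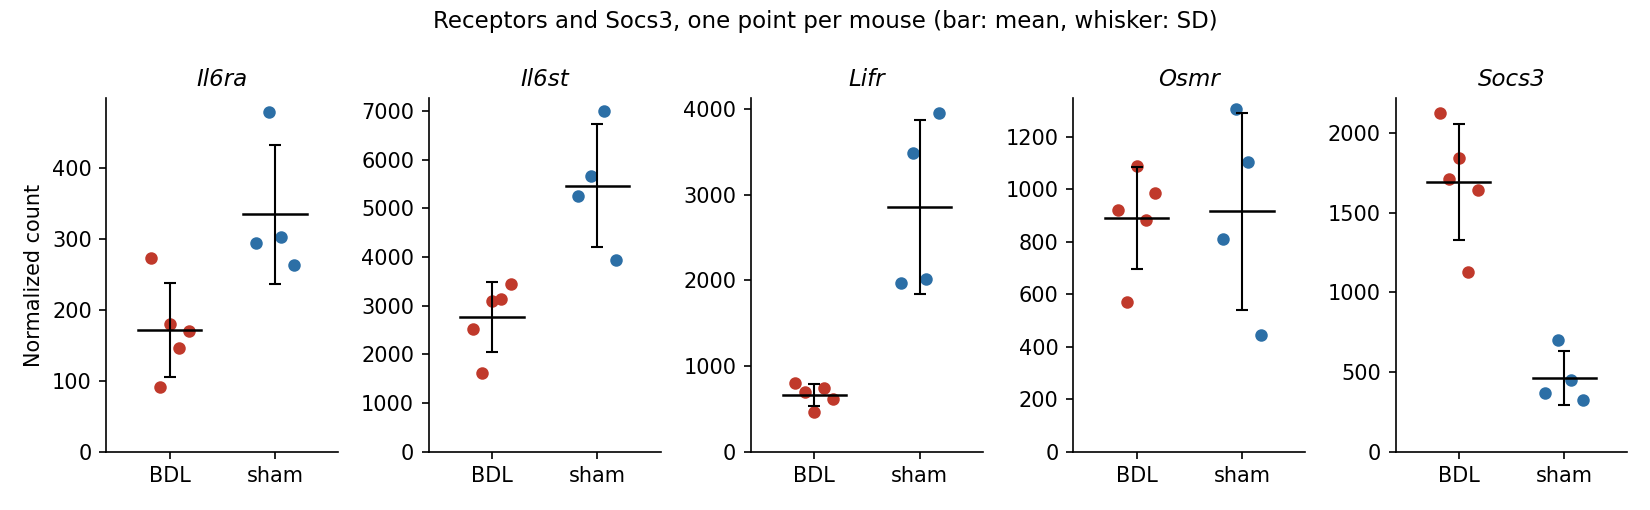
Each panel shows the normalized counts of 1 gene, with its own axis from 0, for BDL (red, n = 5) at left and sham (blue, n = 4) at right, 1 point per mouse, bars for means and whiskers for SDs. Il6st and Lifr are lower and Socs3 higher after BDL with no overlap, Il6ra is lower with BDL replicate 3 inside the sham range, and Osmr overlaps throughout.

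The ligands that passed the test were all higher and the receptor chains that passed were all lower, and their balance was followed within each library, where the scaling between libraries has no effect. For this, counts were divided by the summed exon length of each gene in kb. These ratios were chosen after the values had been seen and are given as a description. The ratio of Osmr to Lifr was 1.27, 0.915, 2.59, 1.33 and 1.76 in BDL replicates 3, 4, 6, 8 and 10, against 0.456, 0.416, 0.609 and 0.125 in sham replicates 1, 2, 5 and 7. Lifr exceeded Osmr in every sham library, and Osmr exceeded Lifr in every BDL library except replicate 4. The ratio of Socs3 to Il6st was 3.67, 4.62, 2.60, 1.57 and 2.08 in the BDL libraries, against 0.305, 0.540, 0.279 and 0.357 in the sham libraries. Per kb, Socs3 RNA was thus below the RNA of Il6st in every sham library and above it in every BDL library. Which gene of a ratio is the higher depends on the exon lengths used, and these understate Il6st. The difference in a ratio between the groups does not depend on them.

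Ligand-to-receptor ratios moved the same way. Lif to Lifr was 0.536 to 1.19 in BDL libraries and 0.0351 to 0.178 in sham libraries. Il6 to Il6ra was 2.48 to 4.70 after BDL, so the ligand exceeded its receptor in all 5 libraries, and 0 to 0.0960 after sham surgery. Osm to Osmr was 0.0939 to 3.65 after BDL and 0 to 0.0324 after sham surgery, and the ligand exceeded its receptor only in BDL replicates 3 and 6. Il11 to Il11ra1, its own alpha chain, was 0.0438 to 0.449 after BDL and 0 to 0.00906 after sham surgery, so Il11 stayed below its receptor in every library. RNA per cell type was not measured, so a ratio is one of the whole duct.

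**Figure D3:**
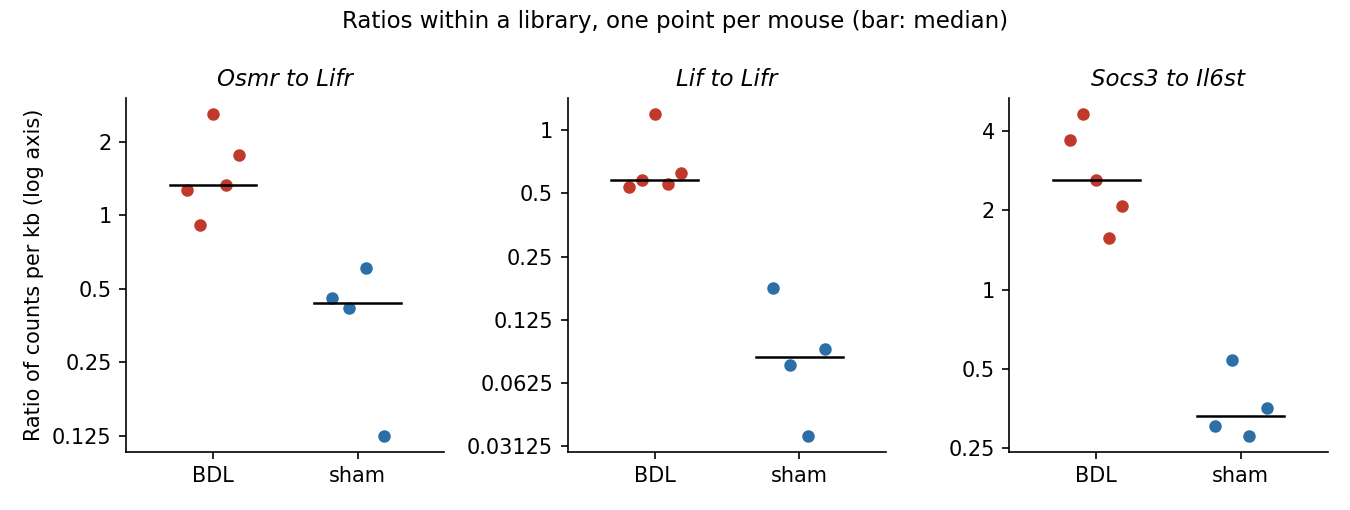
Each panel shows 1 ratio of counts per kb of exon within a library on a log axis, with BDL (red, n = 5) at left and sham (blue, n = 4) at right, 1 point per mouse and bars for medians. All BDL libraries lie above all sham libraries in each panel, with medians of 1.33 after BDL and 0.436 after sham surgery for Osmr to Lifr, and of 2.60 after BDL and 0.331 after sham surgery for Socs3 to Il6st.

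On the same scale per kb, the order of the levels differed between the groups. After BDL, Socs3 was highest with a level of 475 ± 103 normalized counts per kb, followed by Il6st (178 ± 46.2), Osm (123 ± 143), Osmr (71.8 ± 15.7), Il6 (69.9 ± 33.9), Clcf1 (65.2 ± 16.3), Lifr (48.3 ± 9.39), Il11 (33.5 ± 26.8), Lif (31.8 ± 4.99) and Il6ra (19.4 ± 7.47; all SD, n = 5). Of the neighbours in this order, Socs3 and Il6st were the only pair whose libraries did not overlap. After sham surgery, Il6st was highest (352 ± 80.8), followed by Lifr (207 ± 73.5), Socs3 (129 ± 47.5), Osmr (73.8 ± 30.1), Il6ra (37.8 ± 11.03), Clcf1 (35.9 ± 9.27), Lif (19.0 ± 9.73), Osm (1.40 ± 1.19), Il6 (1.38 ± 1.19) and Il11 (1.27 ± 1.71; all SD, n = 4). Here Clcf1 and Lif, and Lif and Osm, were the neighbours that did not overlap, so Osm, Il6 and Il11 lay apart at the bottom. Summed over the 5 ligands, the levels per kb were 171.5 to 573 after BDL and 43.0 to 76.4 after sham surgery. Summed over the receptors Il6ra, Lifr and Osmr they were 107 to 164 after BDL and 242 to 412 after sham surgery, again with no overlap. Most of this difference came from Lifr (207 after sham surgery and 48.3 after BDL), while Osmr was nearly level (73.8 and 71.8). Exon lengths combine all annotated transcripts, so the level of a gene with long alternative ends, such as Il6st, is understated.

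The 10 genes lie on 7 chromosomes. Lif and Osm, both on the + strand of chromosome 11 (4207557 to 4222514 and 4186420 to 4191026 in GRCm39), are neighbours 16.5 kb apart with no protein-coding gene between them. Osm rose by 6.34 on the log2 scale, and Lif had 0.83 and did not pass. Lifr and Osmr lie 216 kb apart on chromosome 15 (7120095 to 7226970 on the + strand and 6843053 to 6904450 on the - strand), also with no protein-coding gene between them, and Lifr fell by 2.05 where Osmr had 0.05. All of the 10 except Il11, Lif and Osm overlap a gene on the opposite strand, and the sources used here do not say whether strand was used in counting.

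The change after BDL was compared between male and female mice with an interaction term. The form of the animal number followed sex in all mice except BDL replicate 8, so sex and numbering are nearly inseparable. None of the 10 genes differed at an adjusted p under 0.05 in edgeR or in DESeq2, and none at an unadjusted p under 0.05 either, with 0.106 for Il6 as the lowest in edgeR. Over all genes edgeR called 0.00% (544 of 21299, or 2.55%, at an unadjusted p under 0.05) and DESeq2 0.0236% (2.58% at an unadjusted p under 0.05). The log2 fold change of Il6 was 6.96 in males (adjusted p = 0.00164) and 4.71 in females (adjusted p = 0.0211). That of Socs3 was 1.87 in males and 2.04 in females, and that of Lifr -1.88 in males and -2.20 in females, and these 3 genes were called in either sex. With 2 or 3 mice per sex and surgery, Il11 and Osm were called in males (6.30 and 6.56) and not in females (3.46, adjusted p = 0.117, and 6.14, adjusted p = 0.109), and the interaction test did not pass for either gene.

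Scaling set the size of the modest changes. With library totals only in place of TMM, the median of all genes moved to 0.89 on the log2 scale, and Il6ra turned to 0.10 (adjusted p = 0.861), Il6st to -0.05 (adjusted p = 0.936) and Osmr to 0.95 (adjusted p = 0.0492), while Lifr stayed lower (-0.98) and Socs3 (2.94), Il6 (6.63), Il11 (5.45) and Osm (7.22) stayed higher and Lif was called higher (1.87, adjusted p = 0.00518). Relative to that median, Il6ra and Il6st remained below and Osmr was close to it. With the acinar level added to the model, a measure that separates the groups, Il6 alone of the 10 was called (5.92), while Lifr had -1.29 (adjusted p = 0.125) and Socs3 1.64 (adjusted p = 0.0557). The groups and the acinar share cannot be told apart, since no BDL library had the share of any sham library.

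**Figure D4:**
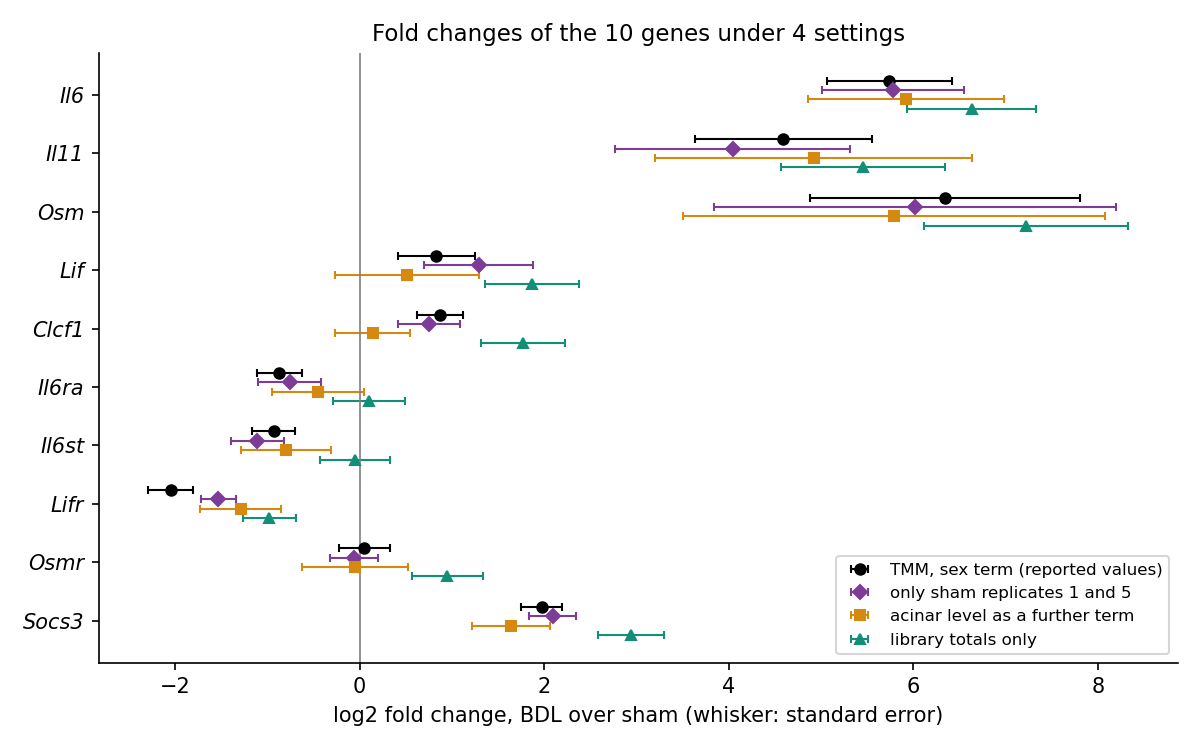
Log2 fold changes of BDL over sham on the horizontal axis for the 10 genes, with standard errors as whiskers, in 4 settings: the reported fit (black), sham replicates 1 and 5 only (purple), the acinar level added to the model (orange) and library totals only (green). Il6, Il11, Osm and Socs3 lie right of 0 and Lifr left of it in all 4, while Il6ra and Osmr change side.

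Other genes of the pathway were read from lists. Of 4 further ligand genes tested, Ctf1, which encodes cardiotrophin 1, fell (-0.64, adjusted p = 0.0154) and none rose. Of all tested genes 21.4% were higher and 19.9% lower, so the share lower is near that of all genes. Cntf had a log2 fold change of -2.70 (adjusted p = 0.121) and Ebi3 of 0.16 (adjusted p = 0.879). Ctf2, Il27 and Il31 had too few counts. The call of Ctf1 ended without sham replicate 5 (-0.53, adjusted p = 0.0668). The median log2 fold change of the 4 was -0.77. None of them rose at an unadjusted p under 0.05 or with DESeq2.

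Of the 4 other receptor genes, Il11ra1 and Cntfr fell and none rose, with a median of -1.67. Over all tested genes 21.4% were higher and 19.9% lower. Il11ra1, the alpha chain for IL-11, had 1232, 681, 1153, 1610 and 1480 normalized counts in BDL replicates 3, 4, 6, 8 and 10, against 3018, 2820, 3121 and 2575 in sham replicates 1, 2, 5 and 7. Every BDL library was below every sham library (log2 fold change -1.17 ± 0.22, adjusted p = 0.00211). Cntfr, the alpha chain used by CNTF and by Clcf1, averaged 27.6 ± 15.1 after BDL (SD, n = 5) and 203 ± 55.3 after sham surgery (SD, n = 4), a log2 fold change of -2.83 (adjusted p = 0.00191). Il27ra (-1.11, adjusted p = 0.133) and Il31ra (-2.16, adjusted p = 0.201) did not pass. None of the 4 rose at an unadjusted p under 0.05 or with DESeq2. Neither Il11ra1 nor Cntfr was called with the acinar level in the model (-0.65, adjusted p = 0.375, and -2.06, adjusted p = 0.276) or in females only (-1.28, adjusted p = 0.0620, and -3.05, adjusted p = 0.0622). Fibroblast markers summed to 6520 to 46200 normalized counts after BDL and 56000 to 95500 after sham surgery, and adipocyte markers to 340 to 4600 after BDL and 5080 to 29900 after sham surgery, with no overlap in either list. Of the 6 fibroblast markers Dcn and Lum were lower and 4 did not pass: Col1a1 (0.75), Col5a1 (0.33), Col1a2 (-0.34) and Pdgfra (-0.35). Dcn alone made up 34040 to 65550 of the sham sums. Of the 4 adipocyte markers 3 were lower and none higher. Their part in the lower receptor levels was not tested.

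The JAK kinases and STAT factors carry the signal from the receptors. Of these 11 genes none rose, also none at an unadjusted p under 0.05 or with DESeq2, 2 fell and 9 did not pass, with a median of -0.11, beside 21.4% higher, 19.9% lower and a median of -0.03 over all tested genes. The share lower is thus near that of all genes. Stat3, the main factor downstream of gp130, had 3504 ± 366 normalized counts after BDL (SD, n = 5) and 3619 ± 644 after sham surgery (SD, n = 4), a log2 fold change of 0.02 (adjusted p = 0.932). Stat5b, which acts downstream of growth hormone and other cytokines, fell by 0.37 on the log2 scale (adjusted p = 0.0200). The number lower was 0 without BDL replicate 3, sham replicate 2 or sham replicate 5, and 1 without BDL replicate 6 or sham replicate 1. RNA levels say nothing of the phosphorylation through which these proteins act.

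Among 15 other SOCS genes and brakes on JAK and STAT signaling, 7 rose, 3 fell and 5 did not pass, with a median of 0.29, beside the 21.4% higher and 19.9% lower of all tested genes. The phosphatase genes Ptpn2 (0.95, adjusted p = 0.000245) and Ptpn1 (0.75, adjusted p = 0.000278) rose together with Socs1 (1.16, adjusted p = 0.00542) and Socs4 (0.51, adjusted p = 0.0145), with log2 fold changes in parentheses. Cish and Socs2, known as feedback genes of STAT5, went the other way. Cish had 119, 169.5, 84.3, 191 and 163 normalized counts in BDL replicates 3, 4, 6, 8 and 10, against 484, 726, 796 and 1019 in sham replicates 1, 2, 5 and 7, with no overlap (-2.33 ± 0.27, adjusted p = 0.000155). Socs2 fell by 0.69 (adjusted p = 0.00190) and the STAT inhibitor gene Pias1 by 0.52 (adjusted p = 0.00391). The number higher was 4 without BDL replicate 10 or sham replicate 2.

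Receptors of this family can be cut from the cell surface by ADAM proteases. Adam17 (0.37, adjusted p = 0.0177) and Rhbdf2, whose product brings ADAM17 to the surface (0.47, adjusted p = 0.0324), rose out of 4 such genes, beside 21.4% higher of all tested genes. Adam10 and Rhbdf1 did not pass. The number higher was 1 without BDL replicate 8, BDL replicate 10 or sham replicate 2, and 0 without sham replicate 5 or 7. Of 30 known STAT3 target genes other than Socs3, 12 rose, 1 fell and 17 did not pass, with a median of 1.33, beside the 21.4% higher, 19.9% lower and median of -0.03 of all tested genes. Timp1, an inhibitor of metalloproteinases (3.71, adjusted p = 1.2e-05), Bcl3, a regulator of NF-kappaB (a fold of 4.01, adjusted p = 2e-05), the AP-1 gene Junb (1.62, adjusted p = 2e-05) and Birc5, a survival and mitosis gene (7.08, adjusted p = 4.5e-05), had the smallest p-values. Timp1 had 3500, 1052, 1806, 1965 and 3696 normalized counts in BDL replicates 3, 4, 6, 8 and 10, against 220.0, 236, 187 and 115 in sham replicates 1, 2, 5 and 7, with every BDL library well above the sham range. Reg3b, also known as a product of pancreatic acinar cells, fell (-4.82, adjusted p = 0.0427), and its call ended without BDL replicate 4, 8 or 10 or sham replicate 2, 5 or 7 (adjusted p = 0.0574 to 0.0813), and its sign turned with the acinar level in the model (2.04). Most of these targets are also driven by other factors, and STAT3 activity was not measured.

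The counts of these lists moved with the scaling. With library totals only, whose median over all genes is 0.89, 6 of the 11 JAK and STAT genes, 11 of the 15 brakes and 19 of the 30 STAT3 targets were called higher, and the values of Ctf1 (0.25), Socs2 (0.23) and Pias1 (0.40) were above 0. Cntfr (-1.92) and Cish (-1.33) were called lower in that setting as well, and Il11ra1 had -0.26 (adjusted p = 0.576). With upper-quartile scaling, whose median is -0.18, 3 brakes were higher and 4 JAK and STAT genes lower. With the acinar level in the model, 8 STAT3 targets and 1 brake were higher.

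**Figure D5:**
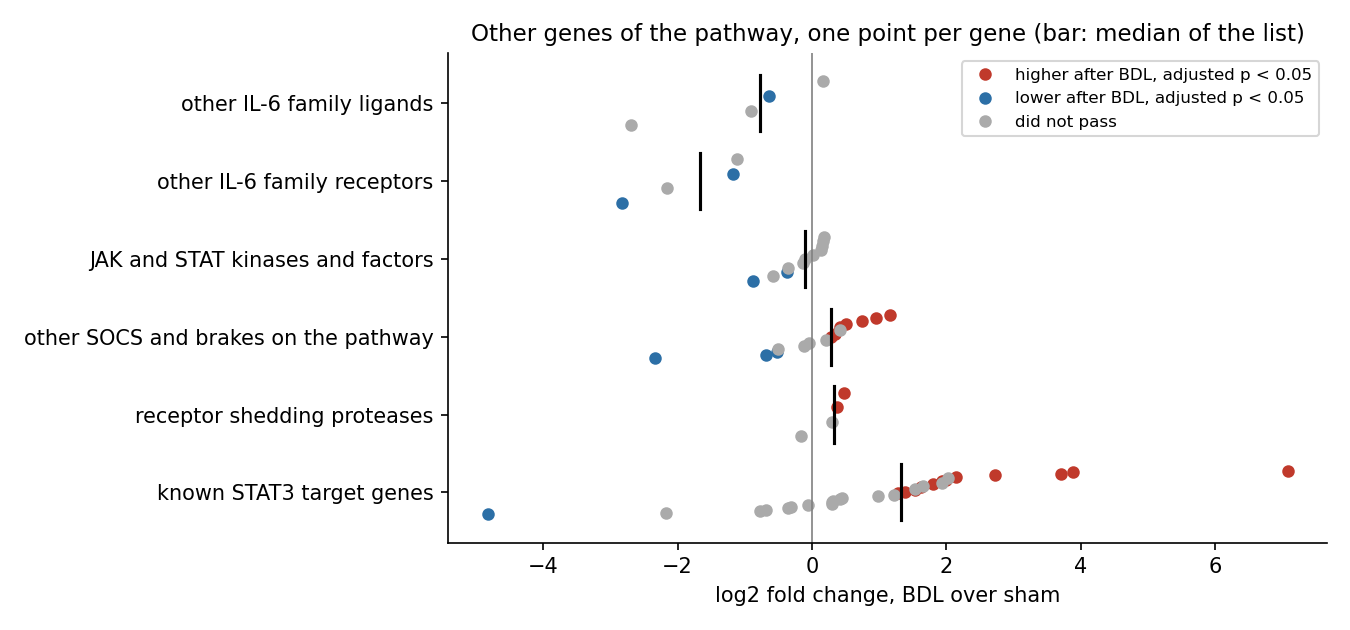
Log2 fold changes of BDL over sham on the horizontal axis for the tested genes of 6 pathway lists, 1 point per gene, red for higher and blue for lower at an adjusted p under 0.05 and grey for genes that did not pass, with a bar at each median. The medians run from -1.67 for other receptors to 1.33 for known STAT3 targets, and the list of JAK and STAT genes lies around 0.

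The genes most like Il6 and Socs3 over the 9 libraries were sought by the root mean square difference of log2(normalized count + 1), each gene centred on its mean, among genes with a mean of at least 100 normalized counts. Nearest to Il6 were Chil3 (0.465), Clec4e (0.651) and Arg1 (0.715) of 11765 genes compared. Nearest to Socs3 were Slc20a1 (0.193), Exosc8 (0.276) and Trmt6 (0.277) of 11764 compared. Chil3 had 7743, 1142, 3523, 2425 and 4472 normalized counts in BDL replicates 3, 4, 6, 8 and 10, so that replicates 3 and 4 were its highest and lowest as they were for Il6, against 133, 36.3, 152 and 239.8 in the sham libraries. Slc20a1 had 641, 693, 675, 420.1 and 634 normalized counts in the BDL libraries, with replicate 8 lowest as for Socs3, against 108, 216, 125.8 and 127 in the sham libraries, with replicate 2 highest as for Socs3.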

How the data were processed

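The authors prepared libraries of whole-duct RNA using a SMART-Seq mRNA kit and paired-end sequencing, quantified transcripts of Gencode vM33 (GRCm39) by Salmon, and collapsed these to genes by tximeta. What they deposited are gene counts, estimated and rounded to whole numbers, with no normalization. Being estimates, they split reads between overlapping transcripts, and transcript length offsets were not used here.

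Surgery was taken from the labels and sex from the deposited sample sheet. The deposited counts of all 21299 genes with at least 10 summed counts were fitted with edgeR 4.0.16 (quasi-likelihood test, TMM, sex and surgery as terms, R 4.3.3) and adjusted by Benjamini-Hochberg. Standard errors were derived from the F statistic. Size factors came from DESeq2 1.42.0. Counting intervals are 95% and cover counting error only. The fit was tested on simulated data. Exact permutation tests were two-sided. Each library is 1 mouse, so p-values set the difference between the groups against the spread between mice.

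All 10 members were named. In pathway lists, the genes of smallest p were named, up to 4 each way, and any called against the majority, and every gene of short lists. In marker lists 2 of highest level were allowed, and Ly6g, Stat3 and all fibroblast markers were named after their values were seen. Some genes of the lists are not reported here by name. The members and lists were chosen with earlier results of these data known. Alternatives were DESeq2, other scalings and filters, other terms, 1 sex only, and each library left out. Positions are from Gencode vM39, which holds 55261 of the 55822 IDs.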

Additional observations from a re-analysis of the deposited data

Results flagged for a closer look

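Lif in BDL replicate 6 had 186 normalized counts (186.3), apart from the other 4 BDL libraries, of which the nearest had 144.5. The gap was 0.745 of the range of the group. In all 20 groups were examined, each of the 10 genes in BDL and in sham libraries, and the criterion, Dixon's 95% critical value, by its construction sets apart about 1 in 20 groups by chance. For none of the 10 genes did the interaction of sex and surgery pass the test (edgeR and DESeq2, none at an unadjusted p under 0.05 either).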

How the results depend on the processing

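The analysis was unpaired, since the labels used here name no pairs of BDL and sham mice and the replicate numbers are library numbers. The study's methods say that mice were matched by age and sex, with littermates as controls where possible. Which mice were littermates is not given in these labels. Over 22 alternatives for each of the 10 genes, 183 of 220 values kept direction and side of the threshold, 25 lost the call, 2 gained it and 10 changed sign, and Il6 kept its call in all. Of the 5 genes higher, 1 remained with the acinar level in the model, 2 in female mice only and 2 with sham replicates 1 and 5 only. Of the 3 lower, 1 was called with library totals only, 0 with the acinar term and 1 in females only. With each library left out, 4 to 5 were higher and 2 to 3 lower. Over all genes, 4565 were higher and 4245 lower, against 8150 and 1145 with library totals only, 1027 and 324 with the acinar term and 1747 and 1217 in females only. Il6ra changed sign with library totals only (0.10). Osmr, which was never called lower, changed sign with upper-quartile scaling (-0.10), filterByExpr (-0.001), a term for how animals were numbered instead of sex (-0.01), the acinar term (-0.05), males only (-0.10) and sham replicates 1 and 5 only (-0.06), and ran from -0.20 to 0.32 with 1 library left out. The acinar term ended the calls of Il11 (4.92), Osm (5.79), Clcf1 (0.14), Il6ra (-0.45), Il6st (-0.80), Lifr and Socs3. Sham replicates 1 and 5 only ended those of Il11 (4.04), Osm (6.02), Clcf1 (0.75) and Il6ra (-0.76). The cause was not tested, and the settings with sham replicates 1 and 5 only or with 1 sex only also held fewer mice. With 0 to 6 counts of Il6, Il11 and Osm in a sham library, depth limits the size of their folds rather than their direction.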
